A study of Sus scrofa with 12 samples.

Results

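The core genes of Notch signalling were followed in the uterus of newborn gilts (young female pigs), where the deposited table of 20390 gene rows held 8 of the 10 genes chosen: the receptors NOTCH3 and NOTCH4, the ligands JAG1, JAG2, DLL1 and DLL4, and the target genes HES1 and HEY1. The genes were chosen by name as receptors, ligands and targets by a rule that uses none of their values, though with earlier results of these data known, and NOTCH1 and NOTCH2 are not analysed here. DLL4 was listed in 2 rows, so 9 rows carried the 8 genes. All 9 rows exceeded the table's lowest value of 1 in every library and all were tested. Against birth, JAG2 fell 2.97-fold and NOTCH4 fell 1.98-fold in gilts fed milk replacer, and no Notch gene passed the test in nursed gilts or between the 2 diets.

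In all, 3 groups of 4 animals were compared, with 1 uterine RNA library per animal. PND2N gilts were nursed and PND2R gilts were given milk replacer, each for 48 h, with the uterus collected at 50 h of age, on postnatal day 2. PND0 gilts were not nursed, by their labels, and were euthanized within 1 h of birth. The gilts were crosses of the Landrace, Yorkshire, Duroc and Hampshire breeds in all groups, with no genetic modification named. Age and feeding both separate day 2 from birth, so their shares of a change since birth cannot be told apart, whereas PND2N and PND2R share their age and differ in diet.

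Notch receptors are membrane proteins that are cut when a ligand of the Jagged or Delta-like family on a neighbouring cell binds them. The freed intracellular part enters the nucleus, joins the DNA-binding protein RBPJ and Mastermind-like proteins, and switches on targets such as the HES and HEY repressors. In many tissues NOTCH4 and DLL4 are known from blood vessel endothelium, NOTCH3 from the smooth muscle and pericytes of vessel walls, and Jagged ligands from vessels and epithelia.

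The values are normalized levels per whole uterus, in which fewer cells of a type and less RNA per cell cannot be told apart. Whether they are scaled to gene length is not given in the sources consulted, so levels are compared between libraries and not between genes. Sums over marker rows are likewise compared between libraries only. Tests used limma on log2(value + 1), and a gene is said to have risen or fallen where its Benjamini-Hochberg adjusted p over all rows tested was under 0.05. Library totals ran from 26534074 to 29544130 normalized units, and 17.8% to 22.1% of rows sat at the lowest value. Of 10 genes listed for uterus, 9 had a row (among them the uterine transcription factor genes HOXA10, HOXA11 and HAND2), and no listed marker row was at the lowest value in every library. Libraries stood apart within groups. PND2N 1, PND2R 2 and PND2R 3 had the 3 highest values of the muscle gene DES, 29022 to 40049, against 7460.1 to 23440 in the other 9, and calls are also given without these 3. Of 9 smooth muscle marker rows, 5 were higher in these 3 than in the other 5 day 2 libraries, DES itself among them. Another 2 were lower (CALD1 and 1 MYLK row) and 2 overlapped, so high DES does not stand for the whole list. The share of all rows that separate these 3 from the other 5 was not computed, so such separations are given as descriptions only. The 3 high-DES libraries also had the 3 highest totals (28354031 or more, against at most 27899130) and the 3 highest shares of rows at the lowest value (21.3% to 22.1%, against 17.8% to 20.4%). Within PND0, libraries 1 and 2 had 3.97 times the mean KRT8 of libraries 3 and 4 (KRT8 is a keratin of simple epithelia). These splits were noticed in the data, and no label explains them.

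Of the 2 receptors, NOTCH4 fell in replacer-fed gilts against birth. Its row lies on chromosome 7 from 28173640 to 28198675 on the minus strand of Sscrofa10.2, the build of all positions here. It stood at 770.0, 1100.4, 707 and 838 in PND2N 1 to 4. It stood at 743, 668, 757 and 674 in PND2R 1 to 4, and at 927, 1077, 1650.4 and 2376 in PND0 1 to 4. All 4 PND2R libraries lay below all 4 PND0 libraries, as in 15.6% of rows tested, while PND2N 2 lay inside the PND0 range. Means were 854 ± 173 in PND2N, 710.5 ± 46.0 in PND2R and 1508 ± 657 in PND0 (SD, n = 4 each).

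On the log2(value + 1) scale, NOTCH4 fell by 0.99 ± 0.27 (SE) in PND2R against PND0 (95% interval -1.57 to -0.40, limma adjusted p = 0.032). Across the table, 15.0% of the 16862 rows tested changed in PND2R against PND0, 7.31% fell and 7.70% rose. In PND2N against PND0 the NOTCH4 change was -0.74 ± 0.27 (limma adjusted p = 0.13), in a comparison where 3.32% of rows changed. With the 2 diets averaged, NOTCH4 fell by 0.86 ± 0.23 against PND0 (limma adjusted p = 0.028), a comparison with 18.1% of rows changed, 8.49% lower and 9.57% higher. PND2N minus PND2R was 0.25 ± 0.27 (95% interval -0.34 to 0.83), a comparison in which 0.0119% of rows changed.

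The NOTCH4 calls rested on single libraries. The PND2R call ended without PND2R 2, PND2R 3, PND2R 4, PND0 3 or PND0 4 taken out singly (limma adjusted p 0.059 to 0.088) and held in 7 of 12 such fits, and without the 3 high-DES libraries the change was -0.99 with limma adjusted p = 0.15. The averaged call ended without PND2N 4, PND2R 2, PND0 3 or PND0 4 (limma adjusted p 0.052 to 0.085) and, without the 3 libraries, was -0.84 with limma adjusted p = 0.085. PND0 3 and 4, the libraries highest in NOTCH4, had 2.01 times the NOTCH4 mean of PND0 1 and 2, and PECAM1, an endothelial adhesion gene, had 1.61 times its mean there. The 10 endothelial marker rows summed to 10506 to 15458 in PND2N, 9023 to 9538 in PND2R and 10820 to 18381 in PND0. In PND2R against PND0, 2 of 10 fell and 0 rose, beside 7.31% of all rows tested that fell. In PND2N against PND0 0 of 10 passed, and with the diets averaged 1 fell. The part of these marker rows in the NOTCH4 result was not tested.

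NOTCH3 was lower on average on day 2 but not past the threshold. The row was listed as a NOTCH3-like gene on chromosome 2 from 70420796 to 70422924 on the minus strand, 2129 bp, so it holds what was counted in that interval only. NOTCH3 stood at 1382, 1531, 1001 and 1322 in PND2N 1 to 4. It stood at 1235, 1365, 1103 and 1098 in PND2R 1 to 4, and at 1685, 2138, 1171 and 1527 in PND0 1 to 4. PND0 3 lay within the day 2 range and PND2N 2 lay just above PND0 4, so the groups overlapped. NOTCH3 means were 1309 ± 223 in PND2N, 1200.1 ± 127 in PND2R and 1631 ± 401 in PND0 (SD, n = 4 each). The change was -0.30 ± 0.20 in PND2N against PND0 (limma adjusted p = 0.35) and -0.41 ± 0.20 in PND2R against PND0 (limma adjusted p = 0.15). PND2N minus PND2R was 0.11 ± 0.20 (95% interval -0.32 to 0.55).

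**Figure D1:**
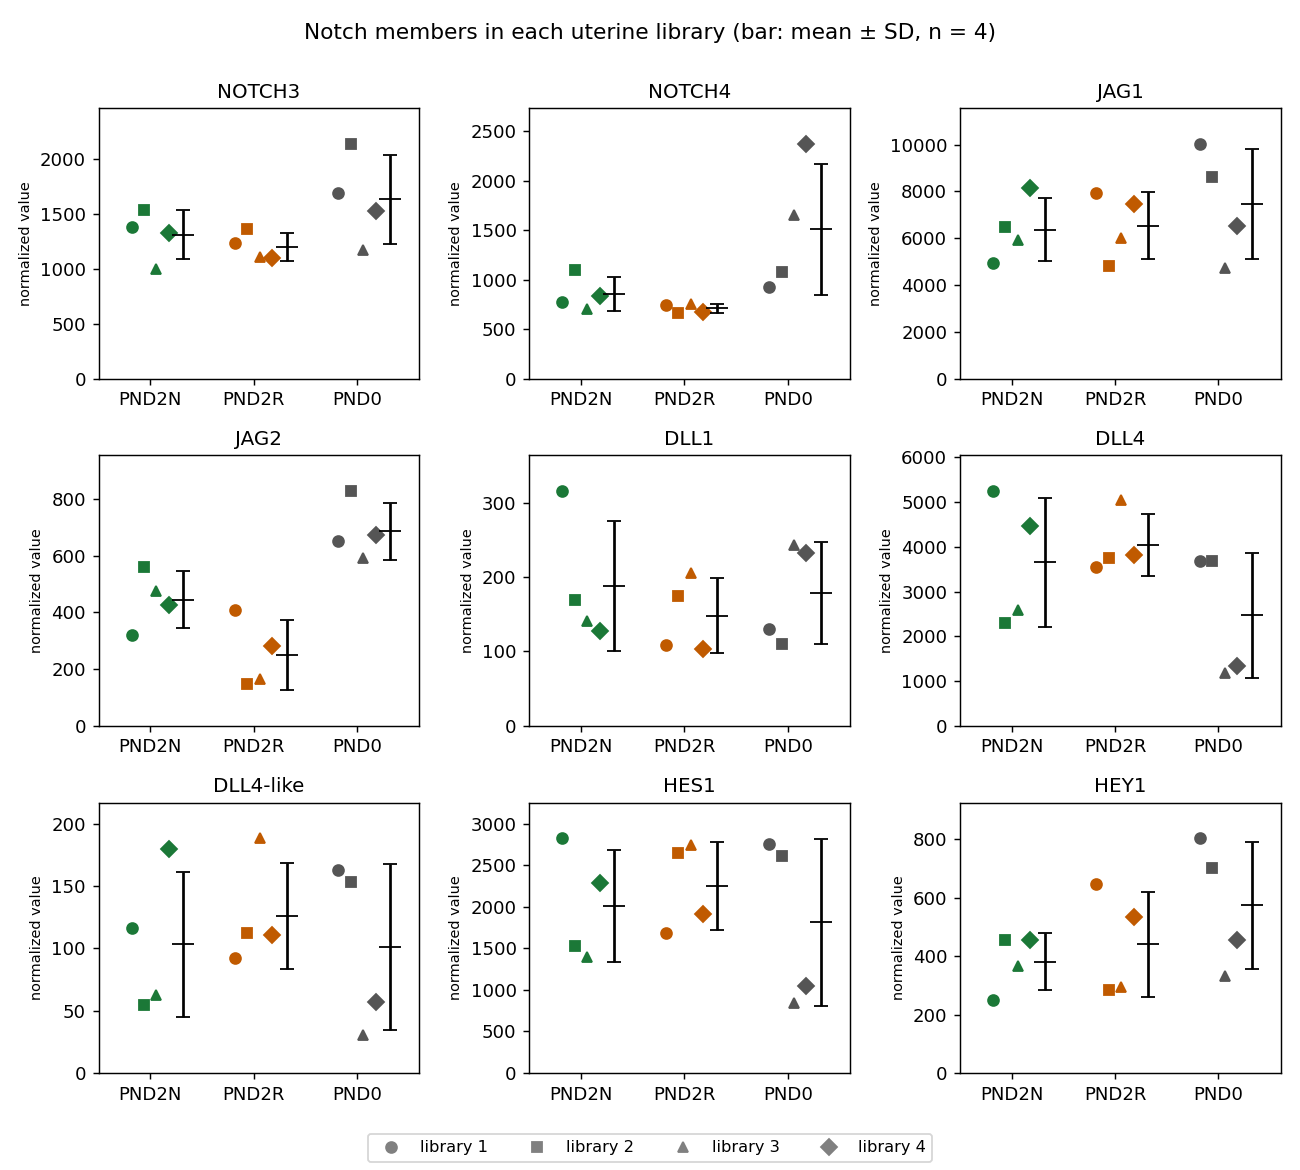
Normalized value of each Notch row in each library, with PND2N, PND2R and PND0 from left to right in every panel, 1 marker shape per library number and a bar for the mean ± SD of 4 libraries. JAG2 and NOTCH4 lie lower in PND2R than in every PND0 library, while DLL4, DLL4-like and HES1 divide the PND0 libraries into a high pair (1 and 2) and a low pair (3 and 4).

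Of the ligands, JAG2 fell furthest. JAG2, a Jagged ligand, lies on chromosome 7 from 130733029 to 130756347 on the minus strand. It stood at 321, 559, 474 and 426 in PND2N 1 to 4. It stood at 410.0, 146, 164 and 280.3 in PND2R 1 to 4, and at 651, 829, 593 and 672 in PND0 1 to 4. Every day 2 library of either diet lay below every PND0 library, and PND2R reached lower than PND2N, with overlap between the diets. Means were 445 ± 99.5 in PND2N, 250.0 ± 122 in PND2R and 686 ± 101 in PND0 (SD, n = 4 each).

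JAG2 fell by 1.57 ± 0.32 in PND2R against PND0 (95% interval -2.26 to -0.87, limma adjusted p = 0.013). In PND2N against PND0 the change was -0.64 ± 0.32 (95% interval -1.34 to 0.05, limma adjusted p = 0.24), with no overlap and PND2N lower, which 7.88% of all rows tested showed. With the diets averaged JAG2 fell by 1.11 ± 0.28 against PND0 (limma adjusted p = 0.022), and 6.62% of rows had all 8 day 2 libraries below all 4 PND0 libraries. PND2N minus PND2R was 0.93 ± 0.32 (95% interval 0.23 to 1.62), with unadjusted p = 0.013 and limma adjusted p = 0.9996, so the difference between diets failed the correction over all genes.

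The PND2R fall of JAG2 held in all 12 fits that left out 1 library (limma adjusted p 0.010 to 0.048). PND2R 2 and PND2R 3, the libraries lowest in JAG2, are among the 3 with high DES. Without those 3 libraries JAG2 was at -1.004 in PND2R against PND0 and the call ended (limma adjusted p = 0.070), while the averaged day 2 change was -0.75 and still passed (limma adjusted p = 0.042). With all 3 kept, that averaged call ended without PND0 2 (limma adjusted p = 0.052) or PND0 4 (limma adjusted p = 0.061). VWF, an endothelial clotting gene, was at 24.2 to 90.2 in those 3 libraries, against 591 to 1733 in the other 5 day 2 libraries. VWF was picked after its values were seen. Of the 10 endothelial rows, VWF and FLT1 were lower in all 3 libraries than in the other 5, and 8 overlapped. How many of all rows were lower in this way was not computed. CLDN5, at 1209 to 1755 in the 3 against 832 to 1327 in the other 5, and ESAM, at 908 to 1252 against 533 to 986, lay towards the higher end. The part of these genes in the JAG2 values was not tested.

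JAG1, the other Jagged ligand, did not pass the test in any comparison. It lies on chromosome 17 from 22581935 to 22628291 on the minus strand. JAG1 stood at 4950.0, 6489, 5906 and 8128 in PND2N 1 to 4. It stood at 7931, 4802, 5999.9 and 7443 in PND2R 1 to 4, and at 10045, 8628, 4714 and 6504 in PND0 1 to 4. PND0 held both the highest and the lowest JAG1 value of the 12 libraries, so the groups overlapped throughout. The change was -0.20 ± 0.25 in PND2N against PND0 (95% interval -0.74 to 0.34) and -0.16 ± 0.25 in PND2R against PND0 (95% interval -0.70 to 0.38). PND2N minus PND2R was -0.04 ± 0.25 (95% interval -0.57 to 0.50).

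DLL1, a Delta-like ligand, varied mostly within groups. It lies on chromosome 1 from 235008 to 242774 on the plus strand. DLL1 stood at 316, 169, 140.3 and 127 in PND2N 1 to 4. It stood at 109, 174, 206 and 103 in PND2R 1 to 4, and at 129.9, 110.5, 243 and 233 in PND0 1 to 4. The 3 high-DES libraries had the highest day 2 values, 174 to 316, against 103 to 169 in the other 5. Changes were 0.06 ± 0.39 in PND2N against PND0 (95% interval -0.79 to 0.90), -0.25 ± 0.39 in PND2R against PND0 and 0.31 ± 0.39 in PND2N minus PND2R, none past the threshold.

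DLL4, the Delta-like ligand of sprouting vessels, was higher on average on day 2 without passing the test. Its main row lies on chromosome 1 from 136337641 to 136432791 on the minus strand and spans 95151 bp, longer than 90.2% of rows. DLL4 stood at 5256, 2301, 2588 and 4465 in PND2N 1 to 4. It stood at 3540.4, 3742, 5058 and 3811 in PND2R 1 to 4, and at 3682, 3683, 1184 and 1335 in PND0 1 to 4. PND0 3 and 4 lay below all other libraries, whereas PND0 1 and 2 lay within the day 2 range. Means were 3653 ± 1436 in PND2N, 4038 ± 689.7 in PND2R and 2471 ± 1400.4 in PND0 (SD, n = 4 each). The change was 0.68 ± 0.40 in PND2N against PND0 (limma adjusted p = 0.31) and 0.89 ± 0.40 in PND2R against PND0 (95% interval 0.03 to 1.76, limma adjusted p = 0.12). PND2N minus PND2R was -0.22 ± 0.40 (95% interval -1.08 to 0.65).

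A separate row listed as DLL4-like lies on the same strand from 136501363 to 136506319, with 4957 bp. The DLL4-like row stood at 116, 54.5, 62.1 and 179.8 in PND2N 1 to 4. It stood at 92.5, 112, 189 and 111 in PND2R 1 to 4, and at 163, 153, 30.8 and 57.0 in PND0 1 to 4. It shared the low values of PND0 3 and 4, although PND2N 2 lay just below PND0 4. DLL4-like changed by 0.17 ± 0.56 in PND2N against PND0, 0.57 ± 0.56 in PND2R against PND0 and -0.40 ± 0.56 in PND2N minus PND2R, none past the threshold. Which transcripts fell in each row, and whether the authors' counting split DLL4 reads between them, is not given in the sources used here, so the DLL4 levels are uncertain. In the gene order of a later assembly (Sscrofa11.1) a single DLL4 sits between CHAC1 and VPS18, whereas in the deposited table VPS18 lies between the main row and the DLL4-like row. RHOV and SPINT1, which lie past VPS18 in that order, had 0 matched rows in the deposited table. Whether reads of other genes fell in the long main row was not tested.

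Several epithelial genes had values like those of DLL4, most clearly within PND0. The 3 genes whose log2 values were most like those of DLL4 over the 12 libraries, of 11120 compared, were KRT18 (Pearson r = 0.989), STARD10 (r = 0.987) and RAB25 (r = 0.987). KRT18 is a keratin of simple epithelia, and RAB25 is a small GTPase of epithelial cells. These points share libraries and their composition, and with group means removed the KRT18 value was 0.990. In PND0 1 and 2 over PND0 3 and 4, the ratio of means was 2.92 for DLL4, 3.60 for DLL4-like, 4.21 for KRT18, 3.75 for the epithelial adhesion gene EPCAM and 0.620 for PECAM1. The 8 epithelial marker rows summed to 49729 to 91442 in PND2N, 71124 to 91367 in PND2R and 22960 to 104863 in PND0. All 8 epithelial rows were higher in both PND0 1 and 2 than in PND0 3 and 4. On day 2 not all went with DLL4. ESRP1, an epithelial splicing gene, was at 1363 to 1855 in the 3 high-DES libraries, against 2302 to 3982 in the other 5, where mean DLL4 was 4685 in the 3 and 3341 in the other 5. EPCAM was at 84.7 in PND2N 1, the library highest in DLL4. The part of the epithelial genes in the DLL4 values was not tested.

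**Figure D2:**
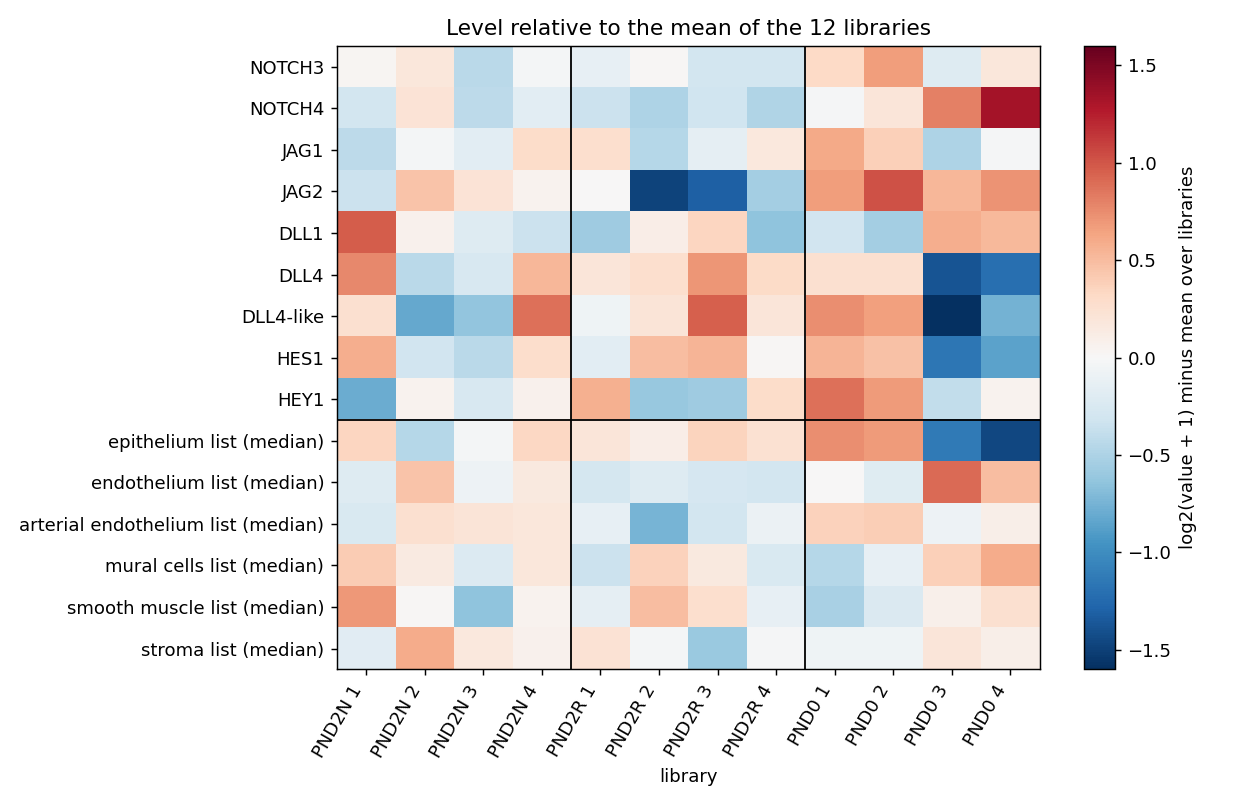
Level of each Notch row (log2(value + 1) minus its mean over the 12 libraries) and, under the horizontal line, the median of the same quantity over each marker list, with PND2N, PND2R and PND0 libraries from left to right. DLL4, DLL4-like, HES1 and the epithelium list share low values in PND0 3 and 4, where NOTCH4 and the endothelium list are high.

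HES1, a repressor and the most widely used readout of Notch activity, lies on chromosome 13 from 137073335 to 137075230 on the plus strand. It stood at 2831, 1522, 1399 and 2289 in PND2N 1 to 4. It stood at 1685, 2649.9, 2748 and 1919 in PND2R 1 to 4, and at 2758, 2606, 845 and 1046 in PND0 1 to 4. As for DLL4, PND0 3 and 4 were the lowest of all libraries, and the 3 high-DES libraries had the highest HES1 values of day 2, 2649.9 to 2831, against 1399 to 2289 in the other 5. Means were 2010.1 ± 674 in PND2N, 2250.5 ± 528 in PND2R and 1814 ± 1008 in PND0 (SD, n = 4 each). The change was 0.28 ± 0.39 in PND2N against PND0 (95% interval -0.57 to 1.12) and 0.47 ± 0.39 in PND2R against PND0 (95% interval -0.37 to 1.32). PND2N minus PND2R was -0.19 ± 0.39 (95% interval -1.04 to 0.65), and none passed the threshold.

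HEY1, a repressor of the related HEY family known from arteries and the heart, lies on chromosome 4 from 59381052 to 59384986 on the minus strand. It stood at 250.4, 454, 365 and 457 in PND2N 1 to 4. It stood at 647, 285, 295 and 535 in PND2R 1 to 4, and at 806, 703, 333 and 455 in PND0 1 to 4. The 3 high-DES libraries had the lowest HEY1 of the day 2 libraries, 250.4 to 295, against 365 to 647 in the other 5, the opposite of HES1. For DLL1, HES1 and HEY1 alike, the share of all rows that separate these libraries was not computed, so no pattern particular to Notch genes is shown. HEY1 means were 381 ± 97.2 in PND2N, 440.5 ± 179.8 in PND2R and 574 ± 218 in PND0 (SD, n = 4 each). Changes were -0.54 ± 0.36 in PND2N against PND0 (95% interval -1.33 to 0.24), -0.39 ± 0.36 in PND2R against PND0 and -0.15 ± 0.36 in PND2N minus PND2R, none past the threshold.

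The members followed more than 1 pattern across libraries. Over the 12 libraries the log2 values of DLL4 and HES1 had a Pearson r of 0.932, and those of JAG1 and HEY1 had 0.923, the highest pairs of different genes apart from the 2 DLL4 rows. The same r was 0.628 for NOTCH4 and JAG2, and 0.05 with group means removed. Among the genes most like NOTCH4 were ARHGEF17 (r = 0.960) and SNED1 (r = 0.956). The nearest gene of JAG2 was PCDH10 (r = 0.951), and that of HES1 was ST6GALNAC2 (r = 0.982). For JAG1 it was NHSL1 (r = 0.942), with PABPC1 next (r = 0.937), and PABPC1 was also nearest to HEY1 (r = 0.968). NOTCH3 was nearest to ZBTB49 (r = 0.875), DLL1 to TXNRD3 (r = 0.950) and the DLL4-like row to MAST3 (r = 0.962). All are descriptions over the same 12 libraries.

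**Figure D3:**
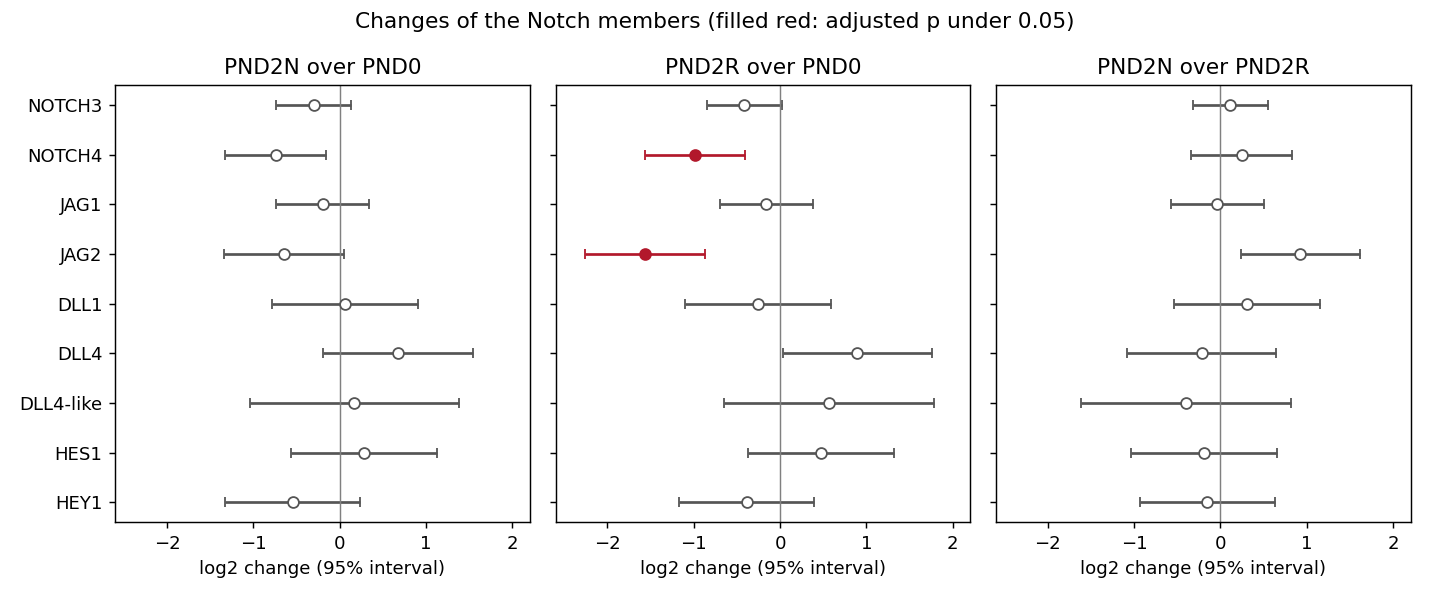
Log2 change of each Notch row with its 95% interval, for PND2N over PND0, PND2R over PND0 and PND2N over PND2R, with filled red points past the adjusted threshold of 0.05. The filled points are NOTCH4 (-0.99) and JAG2 (-1.57) in PND2R over PND0.

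Across the 9 rows, 2 fell and 0 rose in PND2R against PND0 and in the averaged day 2 comparison, and 0 changed in PND2N against PND0 or in PND2N against PND2R. At an unadjusted limma p under 0.05 there were 1, 3 and 1 rows in PND2N against PND0, PND2R against PND0 and PND2N against PND2R. Over all 16862 rows tested there were 4032, 6245 and 452. The median log2 change of the 9 rows was -0.20, -0.25 and -0.04 in those comparisons, beside -0.04, -0.06 and 0.03 over all rows tested. Both comparisons with birth use the same PND0 libraries. With 2 of 9 rows called where 15.0% of all rows were, the count is near the background. That NOTCH4 and JAG2 passed in PND2R but not in PND2N does not show that the diets differ, since the difference itself did not pass.

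Around the receptors and ligands, the other Notch pathway genes were read from a list of 67, of which 48 rows were tested. None passed in PND2N against PND0 or in PND2N against PND2R. At an unadjusted limma p under 0.05 there were 13 and 2, beside 4032 and 452 of all 16862 rows. In PND2R against PND0, 2 rose and 4 fell, and with the diets averaged 5 rose and 5 fell. Over all rows tested 15.0% and 18.1% changed in these comparisons, so both counts are near the background. The median change of the 48 rows was -0.15, -0.11 and -0.04 in PND2N against PND0, PND2R against PND0 and PND2N against PND2R. Among rows of other ligands none of 6 passed. DLL3 changed by 0.51 ± 0.54 and DLK2 by -0.31 ± 0.65 in PND2R against PND0.

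Of 6 rows for receptor cleavage, 1 rose and 0 fell, both in PND2R against PND0 and with the diets averaged. Over all rows tested, 7.70% and 9.57% rose in these comparisons. At an unadjusted limma p under 0.05 there were 2 rows in each, beside 6245 and 6379 of all 16862 rows. NCSTN, a subunit of the gamma-secretase that releases the intracellular part, stood at 7385, 6114, 5830.3 and 6726 in PND2N 1 to 4. NCSTN stood at 6247, 7671, 8149 and 6758 in PND2R 1 to 4, and at 5503, 5617, 4661 and 4734 in PND0 1 to 4. All 8 day 2 libraries lay above all 4 PND0 libraries, as in 6.67% of rows tested. NCSTN rose by 0.49 ± 0.13 in PND2R against PND0 and by 0.42 ± 0.11 with the diets averaged (limma adjusted p = 0.032 and 0.030). ADAM17, a protease that can shed membrane proteins including Notch, averaged 564 ± 164 in PND2N, 471 ± 148 in PND2R and 778 ± 49.7 in PND0 (SD, n = 4 each) and changed by -0.77 ± 0.27 in PND2R against PND0 (limma adjusted p = 0.069).

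POGLUT1, which adds glucose to the receptor's outer part, stood at 21.8, 69.8, 91.2 and 28.4 in PND2N 1 to 4. POGLUT1 stood at 97.5, 13.3, 12.1 and 52.8 in PND2R 1 to 4, and at 122, 78.3, 267 and 197 in PND0 1 to 4. The groups overlapped through PND2N 3 and PND2R 1. POGLUT1 fell by 1.99 ± 0.61 with the diets averaged (limma adjusted p = 0.044). LFNG, a sugar-adding enzyme that alters which ligands a receptor answers to, changed by 0.23 ± 0.22 in PND2R against PND0 and did not pass.

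Of the genes for ubiquitination and trafficking, MIB1, a ubiquitin ligase that lets ligands be internalized and become active, was lower on day 2. MIB1 stood at 7696, 9290.2, 9405 and 7148 in PND2N 1 to 4. It stood at 8726, 6399, 6309 and 8218 in PND2R 1 to 4, and at 10628, 9864, 15397 and 14172 in PND0 1 to 4. Every day 2 library lay below every PND0 library, as in 6.62% of rows tested. MIB1 fell by 0.75 ± 0.18 in PND2R against PND0 and fell by 0.65 ± 0.16 with the diets averaged (limma adjusted p = 0.023 and 0.018). Of the 9 ubiquitination and trafficking rows tested, 2 rose and 1 fell with the diets averaged, beside 9.57% and 8.49% of all rows tested. The 2 that rose were among 4 Deltex family rows, of which 2 did not pass. DTX3L rose by 1.23 ± 0.31 in PND2R against PND0 (limma adjusted p = 0.026), at 934 ± 161 in PND2R and 423 ± 165 in PND0 (SD, n = 4 each). DTX1 rose by 0.63 ± 0.20 with the diets averaged (limma adjusted p = 0.047). DTX3 changed by 0.10 ± 0.21 and DTX4 by -0.11 ± 0.21 with the diets averaged.

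In the nuclear complex, 3 of 18 rows fell with the diets averaged and 0 rose, beside 8.49% and 9.57% of all rows tested. Described here are the 2 rows of NCOR1, which encodes a corepressor that binds RBPJ's partners when Notch is silent, and CREBBP, a histone acetyltransferase that acts as coactivator. The NCOR1 row listed under a placeholder name stood at 204, 1037, 1131 and 527 in PND2N 1 to 4. It stood at 1029, 203, 233 and 857 in PND2R 1 to 4, and at 1863, 1676, 1627 and 2098 in PND0 1 to 4. Its 3 lowest libraries were the 3 with high DES. This NCOR1 row fell by 2.00 ± 0.60 in PND2R against PND0 and fell by 1.80 ± 0.52 with the diets averaged (limma adjusted p = 0.046 and 0.037). The row listed as NCOR1 itself went the other way without passing, at 0.44 ± 0.31 in PND2R against PND0 (limma adjusted p = 0.32) and 0.31 ± 0.27 with the diets averaged (limma adjusted p = 0.41). It stood at 3549.6 in PND2N 1, 3142 in PND2R 2 and 3295 in PND2R 3, the 3 libraries lowest in the placeholder row, so no direction is given for NCOR1 as a gene. CREBBP fell by 0.35 ± 0.11 with the diets averaged (limma adjusted p = 0.046).

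Among other targets, 2 of 6 rows rose with the diets averaged, beside 9.57% of all rows tested. NRARP, a target that limits Notch signalling in turn, stood at 402, 290.2, 319 and 366 in PND2N 1 to 4. NRARP stood at 255, 473, 458 and 299 in PND2R 1 to 4, and at 231, 169, 176 and 261 in PND0 1 to 4. The groups met only at PND2R 1, which lay just below PND0 4. NRARP rose by 0.76 ± 0.23 with the diets averaged (limma adjusted p = 0.039). HES2 rose by 1.12 ± 0.35 with the diets averaged (limma adjusted p = 0.047) at low values, 30.9 to 77.3 in PND2N, 30.1 to 84.0 in PND2R and 19.6 to 22.5 in PND0. HEYL, another HEY family repressor, had 2 rows under placeholder names. The first HEYL row stood at 56.6, 21.7, 22.7 and 38.4 in PND2N 1 to 4. It stood at 17.1, 7.45, 1.10 and 19.6 in PND2R 1 to 4 and at 24.4, 35.1, 79.8 and 37.2 in PND0 1 to 4. This row fell by 2.19 ± 0.68 in PND2R against PND0 (limma adjusted p = 0.0495), and its change in PND2N against PND0 was -0.30 ± 0.68. The other HEYL row changed by -0.46 ± 0.37 in PND2R against PND0 (limma adjusted p = 0.38). In the first row PND2R 3, at 1.10, was close to the floor of 1, where the added value of 1 weighs on the change.

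**Figure D4:**
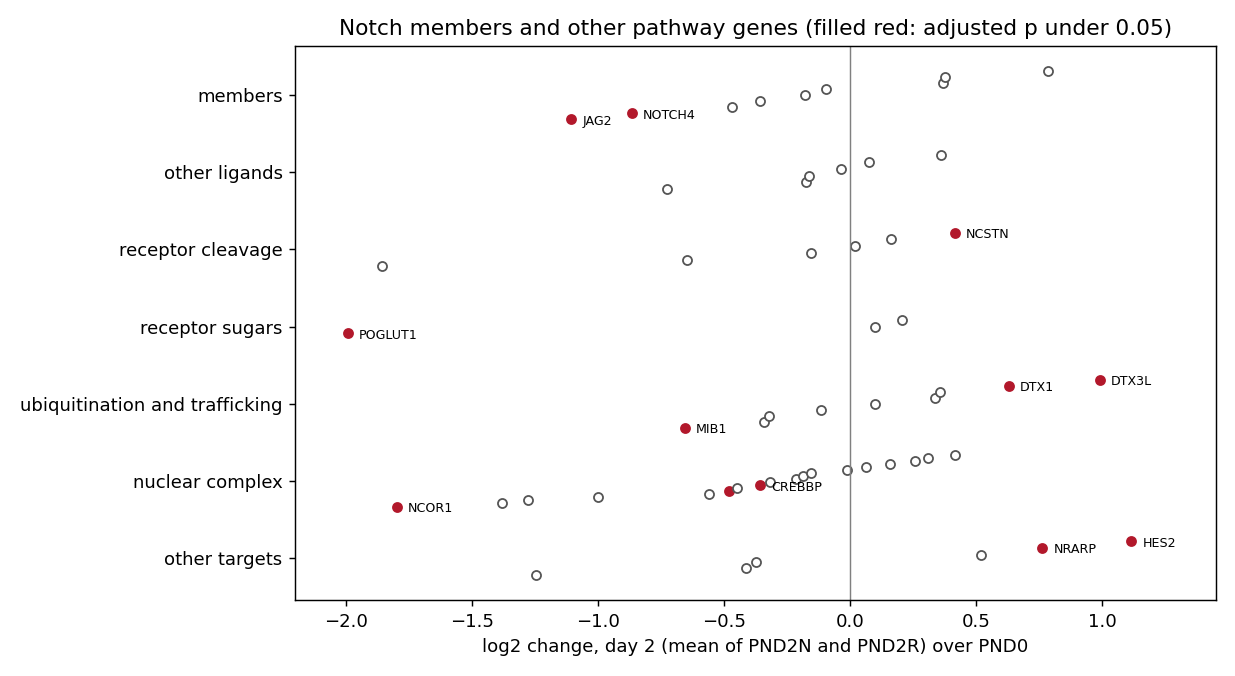
Log2 change on day 2 (mean of PND2N and PND2R) over PND0 for the 9 Notch rows and the 48 other pathway rows tested, by role, with filled red points for those past the adjusted threshold of 0.05 and names for those described in the text (NCOR1 is the row listed under a placeholder name). Of the other pathway rows 5 rose and 5 fell, and 2 Notch rows fell.

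In fits that left out 1 library, these pathway calls were less steady than that of JAG2 in PND2R. None of the 6 calls in PND2R against PND0, and none of the 10 with the diets averaged, held in all 12 fits that left out 1 library. MIB1 with the diets averaged ended without PND0 3 or PND0 4 (limma adjusted p up to 0.065). NCSTN in PND2R against PND0 ended without PND2R 2, PND2R 3, PND0 3 or PND0 4 (limma adjusted p up to 0.10), as did MIB1 (up to 0.077), and DTX3L ended without PND2R 2, PND2R 3 or PND0 4 (up to 0.085). With the diets averaged, NCSTN and DTX3L each ended without PND2N 4, PND2R 2, PND2R 3, PND0 3 or PND0 4 (limma adjusted p up to 0.091 and 0.080). The calls of the first HEYL row, the placeholder row of NCOR1, CREBBP, POGLUT1, DTX1, NRARP and HES2 ended without 7 to 11 of the 12 libraries taken out singly. Without the 3 high-DES libraries, 0 of 6 and 2 of 10 calls passed, among them the placeholder row of NCOR1 with the diets averaged, at -1.01 (limma adjusted p = 0.031). Without them POGLUT1 was at -1.22 with the diets averaged, and the first HEYL row at -1.09 in PND2R against PND0.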

How the data were processed

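The authors deposited 1 table for 12 uterine libraries, whose unit is signal: a normalized linear value per gene row, with 1 as its lowest value. Per the labels' protocols, RNA was isolated with a column kit and libraries made with a kit for messenger RNA. Per the submitters' processing notes, bcl2fastq was used, on build Sscrofa10.2. How reads were aligned, counted (with or without strand) and normalized is not given in the sources consulted, so the depth in reads is unknown and no count test or counting interval was used. Columns were assigned to samples by the library number in each label.

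Values were taken as log2(value + 1). The 16862 of 20390 rows above 1 in at least 4 of 12 libraries entered 1 limma fit (limma 3.58.1, R 4.3.3, statmod 1.5.0) of all 12 libraries with trended, robust empirical Bayes. Tests were two-sided, and adjusted p is Benjamini-Hochberg over all rows tested, threshold 0.05. Fold changes on this scale understate those of low genes. The fit was tested on simulated data with independent genes and no splits between libraries. That test therefore cannot speak to the splits seen here. Replicates are libraries of separate animals by their labels. No litter or batch is given, so whether the libraries of a group are independent is unknown. Each p-value sets a difference between groups against the spread between libraries within groups, as moderated by the fit over all rows tested.

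The Notch members and the pathway and marker lists were chosen with earlier results of these data known. Named were all members, pathway genes past the threshold in any comparison, up to 2 per pathway list with the smallest unadjusted p for day 2, and the 3 genes most like each member (mean value at least 10), of which the nearest is given for most. Some genes named by this rule are not reported here. ADAM10 and the marker genes named beside results were picked after their values were seen. Names for rows under placeholder symbols came from an NCBI gene table of Sscrofa11.1 (14468 rows matched) and from row descriptions. No member row overlapped another row of the table. Nearest were a gene 512 bp from NOTCH3 and one 1016 bp from JAG2. Alternatives were 0.1 or 5 in place of the added 1, a filter at 10 or none, trimmed-mean and quantile normalization, only the groups compared, plain empirical Bayes, library quality weights (whose estimation stopped before full convergence), and each library left out in turn. Fits without PND2N 1, PND2R 2 and PND2R 3 were chosen after seeing the data. Figures were drawn in Python 3.11.15 (matplotlib 3.10.9, pandas 2.3.3, numpy 2.4.6).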

Additional observations from a re-analysis of the deposited data

How the results depend on the processing

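No paired analysis was possible because the labels give no replicate number or litter shared between groups. Of 783 recomputed member changes, 742 kept their direction and side of the threshold, 16 calls ended and 25 uncalled changes reversed in sign. Rows past the threshold in PND2N against PND0 (560) were 859 with no filter, 7 with only the groups compared, 275 without PND2N 1, PND2R 2 and PND2R 3, and 26 to 645 with 1 library left out. In PND2R against PND0 (2531) they were 254 without the 3 libraries and 549 to 4101 with 1 left out. In PND2N against PND2R (2, with 452 at an unadjusted p under 0.05) they were 6 with quality weights, 1 with only the groups compared, 5 without the 3 and 1 to 3 with 1 left out. With the diets averaged (3046) they were 1418 without the 3 and 1032 to 3834 with 1 left out. Members past the threshold in PND2R against PND0 (2) were 1 with no filter, 0 without the 3 and 1 to 2 with 1 left out. With the diets averaged (2) they were 1 with quality weights, 1 without the 3 and 0 to 2 with 1 left out. NOTCH4 was the member lost with no filter in PND2R (limma adjusted p = 0.050) and with weights in the average (0.057).

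Uncalled changes reversed as follows. Without the 3 libraries, JAG1 was 0.098 in PND2R against PND0 and 0.0075 in the average, DLL1 -0.22 in PND2N against PND0, and HEY1 0.12 in PND2R against PND0. With quality weights in PND2N against PND0, DLL1 was -0.00043, DLL4-like -0.21 and HES1 -0.023. With quantile normalization DLL1 was 0.11 in PND2R against PND0 and 0.18 in the average. With 1 library left out in PND2N against PND0, DLL1 was -0.22 to 0.23, DLL4-like -0.29 to 0.50 and HES1 -0.024 to 0.54. JAG1 was then -0.36 to 0.00061 in PND2R against PND0. In PND2N minus PND2R, JAG1 was -0.18 to 0.078 and HEY1 -0.33 to 0.061. In the average, DLL1 was -0.30 to 0.077 and DLL4-like -0.091 to 0.70. The causes were not tested. Depth in reads is unknown, which limits what low rows such as HEYL can show.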

Other observations

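ADAM10, the protease that makes the first ligand-triggered cut in Notch receptors, was low in the 3 libraries with high DES. It stood at 11.5 in PND2N 1, 17.3 in PND2R 2 and 23.4 in PND2R 3, against 165 to 399 in the other 9 libraries. ADAM10 was picked after its values were seen and did not pass the test with the diets averaged (-1.85). A second row listed as ADAM10-like did not show this split, with 40.1 to 80.5 in those 3 libraries and 33.1 to 97.0 in the other 9.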
